A study of Marchantia polymorpha with 12 samples.

Results

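Intact thalli of the liverwort Marchantia polymorpha were compared between the line labelled Mperf15ko and Tak-1, a male laboratory accession. The comparison rests on 6 of the 12 libraries of the series: 3 from uncut Mperf15ko thalli and 3 from uncut Tak-1 thalli, chosen by the genotype and treatment in their labels. Thalli of both genotypes had been grown from gemmae on Gamborg's B5 agar for 14 days, and the labels describe each library as an independent biological replicate of 12 plants. The other 6 libraries came from thalli of the same genotypes whose blades had been wounded 1 h earlier, and they served as a second, separate set of libraries for the same genotype contrast. The labels describe neither the lesion of Mperf15ko nor whether the line is 1 clone, and no complemented line was analysed here.

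ERF15 belongs to the AP2/ERF family of plant transcription factors, which bind DNA through an AP2 domain and take part in responses to wounding, stress and hormones. The series' title presents it as a wound-activated factor that acts in regeneration through oxylipins. Oxylipins are signals made from polyunsaturated fatty acids: lipoxygenases oxygenate the fatty acid, CYP74 enzymes convert the hydroperoxide, and in Marchantia the receptor COI1 removes the repressor JAZ when it binds dinor-OPDA. Intact thalli show the transcriptome of the line labelled Mperf15ko before any cut is made.

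The control libraries held 23.6, 20.7 and 20.9 M estimated reads in Mperf15ko (replicates 1 to 3) and 30.4, 21.2 and 24.5 M in Tak-1. Log2 CPM (the reads of a gene relative to all reads of its library, scaled between libraries) correlated at 0.984 to 0.988 within a genotype. The first principal component of the 6 libraries held 59.6% of the variance and separated the genotypes, with scores of 26.6, 40.2 and 42.9 in Mperf15ko against -34.6, -35.3 and -39.7 in Tak-1. The 10 most abundant genes took 6.69% to 7.91% of the reads of Mperf15ko libraries and 6.59% to 8.60% of those of Tak-1 libraries.

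MpERF15 (Mp7g09350, chromosome 7), the gene named in the label, did not separate the genotypes. Its level was 2.50, 4.39 and 2.22 CPM in the 3 Mperf15ko libraries, against 1.84, 2.39 and 2.26 CPM in the 3 Tak-1 libraries (log2 fold change 0.50, SE 0.42, edgeR adjusted p = 0.41). The libraries of the genotypes overlapped. The deposited files hold 1 transcript for the gene, with 60, 92 and 46 estimated reads in Mperf15ko and 59, 51 and 54 in Tak-1. These counts cover the whole transcript and do not check the label, so every direction below rests on the label Mperf15ko.

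The gene with the preceding ID, Mp7g09340, differed widely between the genotypes. It had 6.88, 7.16 and 14.0 CPM in Mperf15ko, against 115, 145 and 107 CPM in Tak-1, and the lowest Tak-1 library lay far above the highest Mperf15ko library. The log2 fold change was -3.72 (SE 0.34, edgeR adjusted p = 6.1e-05), a level 13.1-fold lower in Mperf15ko. In wounded thalli the same gene had 9.00, 6.32 and 14.3 CPM in Mperf15ko and 29.5, 40.2 and 27.7 CPM in Tak-1 (-1.72, adjusted p = 0.005). The files give it no name. Of 30 genes within 15 places of MpERF15 in the order of gene IDs, 21 were tested, 5 were lower and 3 were higher in Mperf15ko. Over all tested genes, 14.6% were lower and 13.6% higher, so these few neighbours are not read as a group. Apart from Mp7g09340, the called neighbours differed by between -0.91 (MpPOD149, a peroxidase) and 0.62 (MpPPR_44) on the log2 scale. Over the genome 80 called genes, Mp7g09340 among them, had a log2 fold change at or below its value, and 3 other genes of chromosome 7 lay below it. The look at these neighbours was added after values had been seen.

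**Figure D1:**
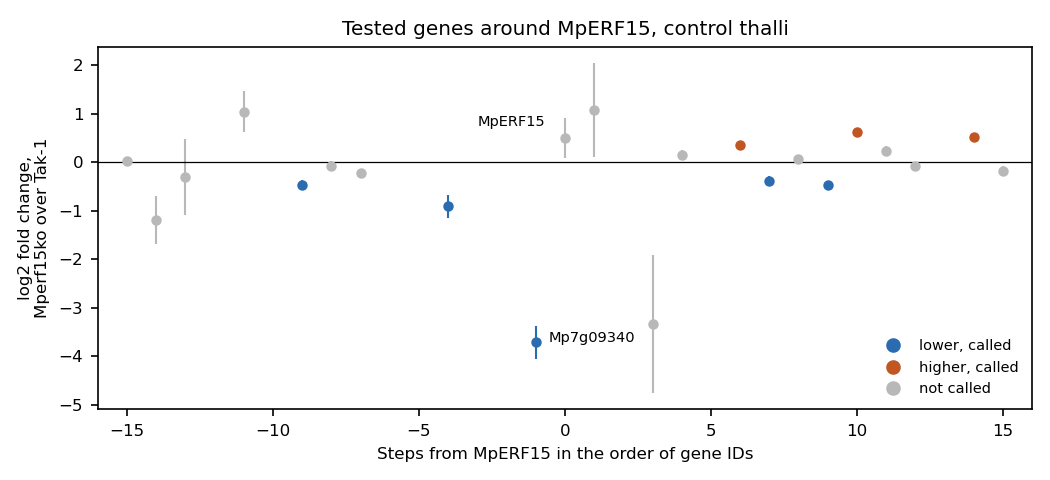
Log2 fold change (Mperf15ko over Tak-1, control thalli) of the 21 tested neighbours and of MpERF15, by position in the order of gene IDs; bars are ± SE and colours mark the edgeR call. Mp7g09340, 1 step before MpERF15, stands at -3.72 while MpERF15 stands at 0.50.

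Across the genome, 4010 of 14246 tested genes (28.1%) passed edgeR's quasi-likelihood test at an adjusted p under 0.05, 2079 of them lower (14.6%) and 1931 higher (13.6%) in Mperf15ko. Large differences were mostly losses: 715 genes (5.02%) were lower by 2-fold or more and 216 (1.52%) were higher by as much. The median absolute log2 fold change of called genes was 0.538, and the median over all tested genes was -0.00996. Without Mperf15ko control replicate 3, 2565 genes were called. Values of the genotypes did not overlap for 5992 tested genes (42.1%), and for 1973 of the 2079 lower and 1869 of the 1931 higher genes. A lack of overlap was thus usual among called genes and adds little to a call. The shares over all tested genes are the background against which the counts of each gene family are read. Bulk libraries cannot tell fewer cells of a type from less RNA per cell, which holds for every result below.

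**Figure D2:**
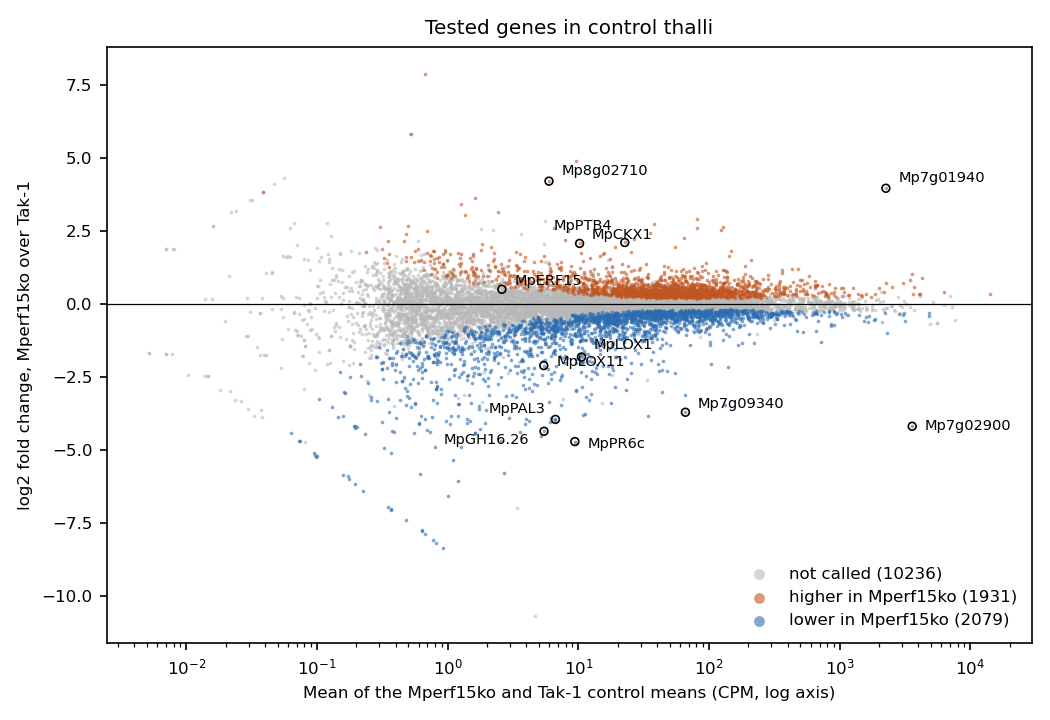
Log2 fold change (Mperf15ko over Tak-1, control thalli) against mean abundance in CPM (log axis) for 14246 tested genes; 1931 genes called higher are orange, 2079 called lower are blue. The points spread further below the zero line than above it, and Mp7g02900 and Mp7g01940 stand apart at high abundance.

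The enzymes of the first oxylipin step were lower in part. Of 16 named lipoxygenases 15 were tested, 7 were lower and none was higher, with 1 higher when the 6 control libraries were fitted alone or without Mperf15ko wounded replicate 1. The median of the list was -0.0889, against -0.00996 over all tested genes, and the other 8 members did not pass. MpLOX11 had 1.88, 2.34 and 1.88 CPM in Mperf15ko and 6.92, 9.85 and 9.73 CPM in Tak-1 (a log2 difference of -2.12, SE 0.21, edgeR adjusted p = 2.1e-05). MpLOX1 had 4.42, 4.53 and 5.02 CPM in Mperf15ko, against 14.6, 15.5 and 19.4 CPM in Tak-1 (-1.82, SE 0.17, adjusted p = 1.4e-05). MpLOX4 had 5.92, 6.15 and 5.79 CPM in Mperf15ko and 14.4, 19.3 and 10.2 CPM in Tak-1 (-1.29, SE 0.23, adjusted p = 0.0019). For these 3 genes every Mperf15ko library lay below every Tak-1 library, and the Mperf15ko libraries were the more uniform for MpLOX1 and MpLOX4.

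More abundant lipoxygenases differed less. MpLOX14 had 225, 171 and 191 CPM in Mperf15ko and 271, 313 and 296 CPM in Tak-1 (-0.59, SE 0.12, adjusted p = 0.003). In TPM (a level per transcript length and relative to the library) MpLOX14 was the most abundant called member, at 62.4 ± 8.92 TPM in Mperf15ko and 93.5 ± 5.23 TPM in Tak-1 (SD, n = 3 each). MpLOX10 had 63.8, 58.8 and 65.0 CPM in Mperf15ko and 95.9, 85.2 and 107 CPM in Tak-1 (-0.62, SE 0.15, adjusted p = 0.0098). Both sets stood apart without overlap. The calls of 2 weakly expressed members were marginal. MpLOX8 (-0.96, adjusted p = 0.024) did not pass without Mperf15ko control replicate 3 or Tak-1 control replicate 3. Nor did it pass in the 6 control libraries alone or with transcripts in place of genes. MpLOX5 (-0.88, adjusted p = 0.04) did not pass without any 1 of the 3 Mperf15ko control libraries, nor without Tak-1 control replicate 2 or 3. Its call was also lost with replicate number as a block and with transcripts. Summed over the list, lipoxygenase transcripts reached 176, 146 and 155 TPM in Mperf15ko and 219, 219 and 212 TPM in Tak-1. Reads of 6 tested members were shared with other transcripts.

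MpLOX2, another abundant lipoxygenase, gave no detectable difference, with 127, 101 and 117 CPM in Mperf15ko against 116, 114 and 130 CPM in Tak-1 (-0.06, SE 0.10, adjusted p = 0.69). MpLOX7 had the largest positive estimate of the list, 0.56 (SE 0.21, adjusted p = 0.066). MpLOX3, MpLOX6, MpLOX9, MpLOX12, MpLOX13 and MpLOX16 had estimates of -0.09, 0.38, -0.03, -0.01, -0.04 and 0.14, and none passed.

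Neither CYP74 gene passed in intact thalli. MpCYP74N1 had 28.8, 29.6 and 33.1 CPM in Mperf15ko and 29.9, 37.6 and 34.7 CPM in Tak-1 (-0.16, SE 0.13, adjusted p = 0.39). MpCYP74N2 had 70.4, 51.4 and 63.4 CPM in Mperf15ko and 76.5, 77.6 and 66.2 CPM in Tak-1 (-0.25, SE 0.23, adjusted p = 0.45). In wounded thalli MpCYP74N2 was lower in Mperf15ko (-0.73, adjusted p = 0.039), and the difference between wounded and intact thalli was not called (adjusted p = 0.63).

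Of the genes of oxylipin perception, only MpCOI1, the receptor, passed. It had 63.4, 62.6 and 66.1 CPM in Mperf15ko and 53.9, 51.7 and 48.7 CPM in Tak-1, a rise of 0.31 (SE 0.09, adjusted p = 0.019) that did not pass without Mperf15ko control replicate 3 or Tak-1 control replicate 3. MpJAZ had 26.9, 27.1 and 25.9 CPM in Mperf15ko and 28.4, 24.1 and 24.9 CPM in Tak-1 (0.05, SE 0.09, adjusted p = 0.74). MpNINJA, an adaptor of JAZ repressors in Arabidopsis, differed by -0.08 (SE 0.09, adjusted p = 0.52).

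Of the tested genes at the first steps of the phenylpropanoid pathway, more were lower than higher. The pathway converts phenylalanine to cinnamate through phenylalanine ammonia-lyase (PAL), then to coumarate and coumaroyl-CoA, from which polyketide synthases of the chalcone synthase type build flavonoids and related compounds. At the entry (PAL, C4H and 4CL), 15 of 16 named genes were tested, 10 were lower and 2 higher, with a median log2 fold change of -0.924. The 2 higher calls were lost without Mperf15ko control replicate 2, Mperf15ko control replicate 3 or Tak-1 control replicate 1, and 1 remained without Tak-1 control replicate 3 or under upper quartile scaling. Neither passed with transcripts in place of genes. MpPAL3 had 1.21, 0.668 and 0.482 CPM in Mperf15ko, against 10.3, 10.3 and 17.1 CPM in Tak-1 (-3.96, SE 0.32, edgeR adjusted p = 7.1e-06), 15.6-fold lower. MpPAL7 had 2.13, 0.811 and 1.11 CPM in Mperf15ko and 5.55, 7.83 and 8.85 CPM in Tak-1 (-2.42, SE 0.26, adjusted p = 5.9e-05). MpPAL4 had 5.92, 4.96 and 3.67 CPM in Mperf15ko and 16.4, 20.1 and 21.1 CPM in Tak-1 (-1.98, SE 0.16, adjusted p = 6.3e-06). In all 3 genes the genotypes were separated in every library. MpC4H1, the abundant cinnamate 4-hydroxylase, was lower by less, with 169, 170 and 160 CPM in Mperf15ko and 220, 229 and 236 CPM in Tak-1 (-0.46, SE 0.07, adjusted p = 0.00049).

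At the next step, 22 of 28 named polyketide synthases were tested, and 14 were lower and 2 higher, with a median of -1.0. The higher count was 1 without Mperf15ko control replicate 2 or 3 or Tak-1 control replicate 1 or 3. MpPKS/CHS13 had 0.792, 0.811 and 0.434 CPM in Mperf15ko and 8.23, 10.6 and 15.5 CPM in Tak-1 (-4.05, SE 0.33, adjusted p = 1.4e-05). MpPKS/CHS11 had 0.667, 0.334 and 0.241 CPM in Mperf15ko and 5.43, 6.80 and 10.2 CPM in Tak-1 (-4.11, SE 0.34, adjusted p = 9.9e-06). MpPKS/CHS16 differed by -2.96 and MpPKS/CHS18 by -2.58. The called member with the highest TPM over the 6 control libraries, MpPKS/CHS14, had 84.2, 54.5 and 59.0 CPM in Mperf15ko and 123, 147 and 136 CPM in Tak-1 (-1.04, SE 0.23, adjusted p = 0.0073). The list summed to 472, 379 and 358 TPM in Mperf15ko and 718, 724 and 756 TPM in Tak-1. Reads of 15 tested members were shared with other transcripts, so that close copies may have been split unevenly.

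Among flavonoid and auronidin genes, which act further down the pathway, 10 of 27 tested members of 29 named were lower, 2 were higher and 15 did not pass, with a median of -0.24. The lower count was 6 without Tak-1 control replicate 2, and the higher count 1 without Tak-1 control replicate 1. MpF3H, a flavanone 3-hydroxylase, had 64.9, 62.5 and 50.0 CPM in Mperf15ko and 107, 82.5 and 101 CPM in Tak-1 (-0.71, SE 0.11, adjusted p = 0.00057). MpDFR-like12, the most abundant called member, had 197, 185 and 183 CPM in Mperf15ko and 241, 241 and 248 CPM in Tak-1 (-0.37, SE 0.06, adjusted p = 0.00071). MpDFR-like19 was lower by more (-1.13) and MpDFR-like8 was higher (0.67). O-methyltransferases, which methylate such phenolic compounds in flowering plants, had 7 lower and 1 higher of 13 tested of 23 named, led by MpOMT4 (-2.55) and MpOMT14 (-2.24).

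**Figure D3:**
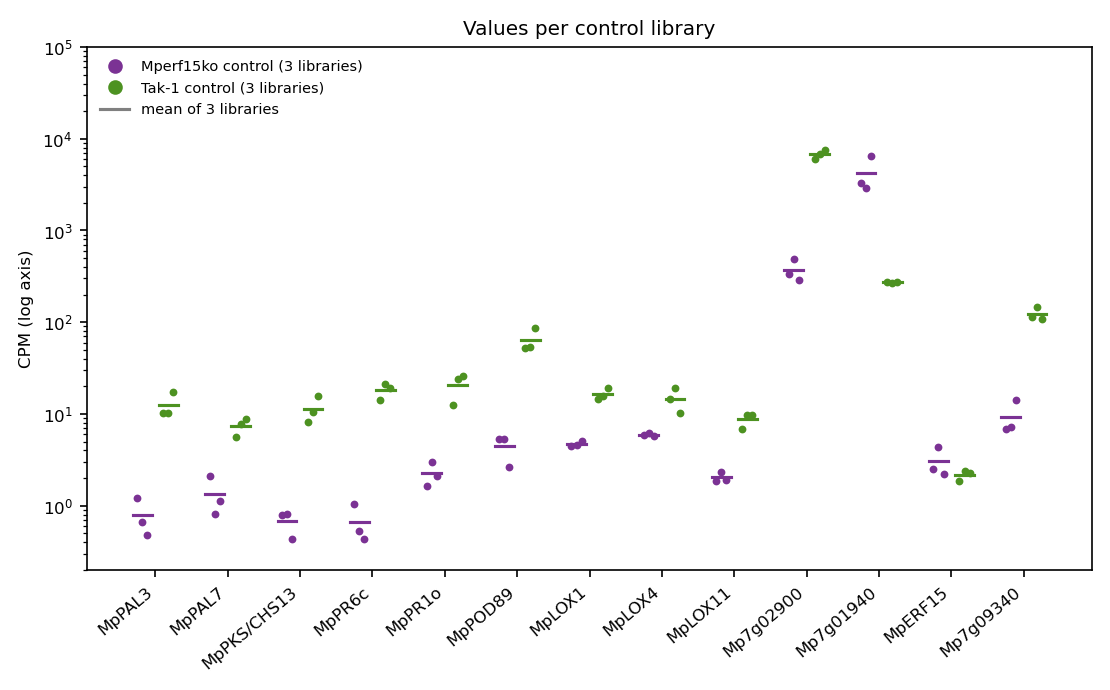
CPM (log axis) of 13 genes in the 3 Mperf15ko and the 3 Tak-1 control libraries; points are libraries and lines are means. MpPAL3 lies at 0.482 to 1.21 CPM in Mperf15ko and at 10.3 to 17.1 CPM in Tak-1, Mp7g01940 is the only gene of the 13 that is higher in every Mperf15ko library, and MpERF15 overlaps.

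Several lists known from plant defence were read one by one. PR1 proteins are secreted proteins that accumulate in infected plants: 10 of 15 tested members of 23 named were lower and none was higher, with a median of -1.14. MpPR1o had 1.63, 3.01 and 2.12 CPM in Mperf15ko and 12.6, 24.0 and 25.8 CPM in Tak-1 (-3.21, SE 0.28, edgeR adjusted p = 1.4e-05). MpPR1w had 3.50, 5.39 and 4.15 CPM in Mperf15ko and 19.1, 21.3 and 29.3 CPM in Tak-1 (-2.42, SE 0.22, adjusted p = 1.4e-05). PR1 transcripts summed to 110, 109 and 97.5 TPM in Mperf15ko and 226, 275 and 274 TPM in Tak-1, so every Mperf15ko sum lay below every Tak-1 sum.

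Chitinases, which cleave the chitin of fungal walls, had 11 lower and none higher of 21 tested of 23 named, and 7 lower without Mperf15ko control replicate 3. MpGH19.13 had 8.67, 8.68 and 11.1 CPM in Mperf15ko and 75.1, 59.0 and 99.4 CPM in Tak-1 (-3.04, SE 0.19, adjusted p = 2.4e-06). MpGH19.6 (-3.31), MpGH19.7 (-2.31) and MpGH19.8 (-1.96) were lower too. The thaumatin-like gene MpPR5b had 39.3, 45.4 and 32.8 CPM in Mperf15ko and 89.1, 100 and 125 CPM in Tak-1 (-1.42, SE 0.17, adjusted p = 0.00011).

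The largest loss of a named defence gene with 10 or more CPM in Tak-1 was that of MpPR6c. PR-6 proteins are proteinase inhibitors in tomato and tobacco. MpPR6c had 1.04, 0.525 and 0.434 CPM in Mperf15ko and 14.1, 21.1 and 19.2 CPM in Tak-1 (-4.72, SE 0.31, adjusted p = 2.4e-06), 26.4-fold lower. MpPR6b, with the ID just before it, differed by -3.82 (SE 0.33, adjusted p = 2e-05).

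Enzymes that oxidise phenolic compounds were read next. Class III peroxidases are secreted enzymes that use hydrogen peroxide to couple phenolics in the cell wall. Of 173 named peroxidases 125 were tested, 55 were lower and 9 higher, 39 of the lower ones by 2-fold or more. MpPOD89 had 5.34, 5.39 and 2.65 CPM in Mperf15ko and 52.7, 53.4 and 85.9 CPM in Tak-1 (-3.83, SE 0.30, adjusted p = 2.1e-05). MpPOD99 had 0.709, 0.191 and 0.338 CPM in Mperf15ko and 6.99, 11.5 and 11.5 CPM in Tak-1 (-4.54, SE 0.34, adjusted p = 3.5e-06). MpPOD34 had no read in any Mperf15ko library and 0.624, 0.891 and 1.38 CPM in Tak-1. It was at least 21.1-fold lower when 3 counts over the group are taken as the floor. Without Tak-1 control replicate 3 this bound was 16.6-fold. MpPOD152, the called member with the highest TPM, ran the other way: it had 382, 369 and 568 CPM in Mperf15ko and 215, 302 and 254 CPM in Tak-1 (0.77, SE 0.18, adjusted p = 0.0068). With transcripts in place of genes 36 peroxidases were lower.

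Polyphenol oxidases oxidise phenols to quinones. Of 42 tested of 57 named, 25 were lower, 18 of them by 2-fold or more, and none was higher. MpPPO52 had 0.584, 0.334 and 0.145 CPM in Mperf15ko and 3.56, 5.82 and 7.27 CPM in Tak-1 (-3.90, SE 0.38, adjusted p = 2.1e-05). MpPPO25 differed by -4.42. MpPPO42, the most abundant called member, had 336, 233 and 279 CPM in Mperf15ko and 450, 404 and 547 CPM in Tak-1 (-0.73, SE 0.13, adjusted p = 0.0015). The family summed to 601, 590 and 475 TPM in Mperf15ko and 913, 812 and 924 TPM in Tak-1. Reads were shared in 35 of the 42.

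Dirigent proteins steer the coupling of phenoxy radicals in flowering plants. Of 51 tested of 59 named, 22 were lower and 5 higher; the higher count was 2 without Mperf15ko control replicate 2, Tak-1 control replicate 1 or Tak-1 control replicate 3, and 3 without Mperf15ko control replicate 3. MpDIR5 had 106, 82.9 and 82.8 CPM in Mperf15ko and 197, 280 and 246 CPM in Tak-1 (-1.41, SE 0.17, adjusted p = 0.00013). MpDIR33 had 0.750, 0.668 and 0.531 CPM in Mperf15ko and 4.96, 5.58 and 7.43 CPM in Tak-1 (-3.18, SE 0.22, adjusted p = 2.4e-06). No read of MpDIR65 was found in Mperf15ko, against 0.530, 1.17 and 2.09 CPM in Tak-1, at least 27.7-fold lower. Without Tak-1 control replicate 3 this bound was 18.6-fold.

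Cupins include the germin-like PR15 proteins. Of 52 tested of 114 named, 21 were lower and 6 higher; 13 were lower without Mperf15ko control replicate 2, and 3 were higher without Mperf15ko control replicate 3 or Tak-1 control replicate 1. MpPR15h had 0.750, 1.05 and 0.531 CPM in Mperf15ko and 7.77, 12.8 and 16.5 CPM in Tak-1 (-3.98, SE 0.34, adjusted p = 1.4e-05). Glucanases of family GH17 are also known from plant defence. They had 4 lower (16.7%) and 2 higher (8.33%) of 24 tested of 25 named, near the background of 14.6% and 13.6%. The higher count was 1 without Mperf15ko control replicate 3 or Tak-1 control replicate 1 or 3. MpGH17.10 was lower (-2.56), while MpGH17.15 had 83.0, 148 and 156 CPM in Mperf15ko and 62.6, 54.7 and 54.7 CPM in Tak-1 (1.17, SE 0.18, adjusted p = 0.00073).

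LEA proteins accumulate in drying tissues and seeds, where they protect proteins and membranes. Of 65 tested LEA and LEA-like genes of 72 named, 33 were lower, 29 of them by 2-fold or more, and 8 were higher. No read of 10 tested members was found in any Mperf15ko control library. MpLEA-like45 was at 0 in all 3 and had 2.50, 0.563 and 1.84 CPM in Tak-1, at least 35.7-fold lower. Without Tak-1 control replicate 1 this bound was 26.3-fold. MpLEA-like9 was at 0 in Mperf15ko too and had 0.936, 0.0938 and 1.17 CPM in Tak-1. MpLEA-like10, also at 0 in Mperf15ko, had 1.28, 0.188 and 0.752 CPM in Tak-1, at least 16.2-fold lower and at least 10.3-fold lower without Tak-1 control replicate 1. The Tak-1 libraries of both genes varied widely, with replicate 2 the lowest. MpLEA-like58 ran the other way and had 133, 128 and 166 CPM in Mperf15ko and 96.6, 114 and 111 CPM in Tak-1 (0.41, SE 0.10, edgeR adjusted p = 0.0093). The summed level overlapped between the genotypes, at 1279, 1358 and 1356 TPM in Mperf15ko and 1321, 1235 and 1263 TPM in Tak-1. With the 6 control libraries fitted alone, 18 LEA genes were lower. The filter on low counts used all 12 libraries, so a gene near 0 in intact thalli could be tested through its wounded level. MpLEA-like34 had 0.0936, 0.0938 and 0.251 CPM in intact Tak-1 and a mean of 7.03 CPM in wounded Tak-1. MpLEA-like40 had 0.218, 0.234 and 0.585 CPM in intact Tak-1 and a mean of 9.77 CPM in wounded Tak-1. The lower LEA count thus includes genes near 0 in intact thalli of both genotypes.

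Families of specialised metabolism were also read against the background of 14.6% lower and 13.6% higher. Glutathione S-transferases, which conjugate glutathione to reactive compounds, had 13 lower and 1 higher of 33 tested of 35 named. MpGST9 had 126, 129 and 114 CPM in Mperf15ko and 203, 202 and 235 CPM in Tak-1 (-0.80, SE 0.09, adjusted p = 6.5e-05), and MpGST17 had 48.0, 40.6 and 40.0 CPM in Mperf15ko and 76.1, 77.0 and 82.4 CPM in Tak-1 (-0.87, SE 0.10, adjusted p = 3.6e-05). The higher count for this family was 2 without Mperf15ko control replicate 2, Tak-1 control replicate 3 and some wounded libraries. Sugar transferases of the UGT type had 9 lower and 3 higher of 30 tested of 37 named, with 4 lower without Mperf15ko control replicate 2 and 5 without replicate 3.

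Cytochrome P450 genes other than CYP74 had 25 lower and 7 higher of 91 tested of 127 named. Without Mperf15ko control replicate 3 these counts were 14 and 4, and without Tak-1 control replicate 1 there were 4 higher. MpCYP822A1 had 56.9, 56.5 and 52.5 CPM in Mperf15ko and 108, 149 and 182 CPM in Tak-1 (-1.40, SE 0.15, adjusted p = 3.7e-05). Terpene synthases had 5 lower and 1 higher of 14 tested of 29 named, and 3 lower without Mperf15ko control replicate 1 or 3 or Tak-1 control replicate 1 or 2. The microbial-type terpene synthase MpMTPSL2 had 0.959, 0.859 and 0.482 CPM in Mperf15ko and 11.1, 11.4 and 12.5 CPM in Tak-1 (-3.90, SE 0.33, adjusted p = 7.1e-06), with no overlap.

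DOXC dioxygenases, oxygenases of specialised and hormone metabolism in flowering plants, had 7 higher and 4 lower of 29 tested of 34 named, and 5 of each without Tak-1 control replicate 1. Without Mperf15ko control replicate 3 there were 4 higher and 2 lower, and without Tak-1 control replicate 3 there were 2 lower. MpDOXC2 had 230, 268 and 255 CPM in Mperf15ko and 117, 128 and 130 CPM in Tak-1 (1.01, SE 0.10, adjusted p = 1.4e-05). ABCG transporters had 6 lower (19.4%) and 3 higher (9.68%) of 31 tested of 34 named, near the background. Their higher count was 1 without Mperf15ko control replicate 2 or 3 or Tak-1 control replicate 3.

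Genes of the cell wall went both ways. Expansins, which loosen walls during growth, had 13 lower and 7 higher of 36 tested of 46 named. MpExpansin5 was lower (-1.88), whereas the expansin-like gene MpEXL3 had 148, 203 and 293 CPM in Mperf15ko and 104, 126 and 127 CPM in Tak-1 (0.85, SE 0.18, adjusted p = 0.0048). In family GH16, which holds xyloglucan endotransglucosylases, 9 were lower and 2 higher of 26 tested of 42 named, with 4 higher without Mperf15ko control replicate 1. MpGH16.26 had 0.750, 0.573 and 0.145 CPM in Mperf15ko and 6.08, 9.05 and 16.2 CPM in Tak-1 (-4.37, SE 0.46, adjusted p = 3.6e-05), while the abundant MpGH16.40 had 205, 228 and 253 CPM in Mperf15ko and 116, 144 and 150 CPM in Tak-1 (0.74, SE 0.10, adjusted p = 0.00023).

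Pectin methylesterases of family CE8, which remove methyl groups from pectin, had 4 higher and 1 lower of 11 tested of 13 named. The higher count was 1 without Mperf15ko control replicate 3 and 2 without Tak-1 control replicate 1 or 2, and the lower call was lost without Mperf15ko control replicate 1 or 3 or Tak-1 control replicate 3. MpCE8.5 had 985, 1051 and 1269 CPM in Mperf15ko and 694, 810 and 747 CPM in Tak-1 (0.55, SE 0.10, adjusted p = 0.0015). Cellulose synthase-like D genes, known in flowering plants and mosses for tip-growing cells, had 5 lower and none higher of 10 tested, with 3 lower without Mperf15ko control replicate 2 and 2 without replicate 3, and 1 higher with transcripts in place of genes. MpCSLD1 had 15.8, 15.5 and 15.5 CPM in Mperf15ko and 21.7, 21.7 and 21.6 CPM in Tak-1 (-0.47, SE 0.11, adjusted p = 0.0056).

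**Figure D4:**
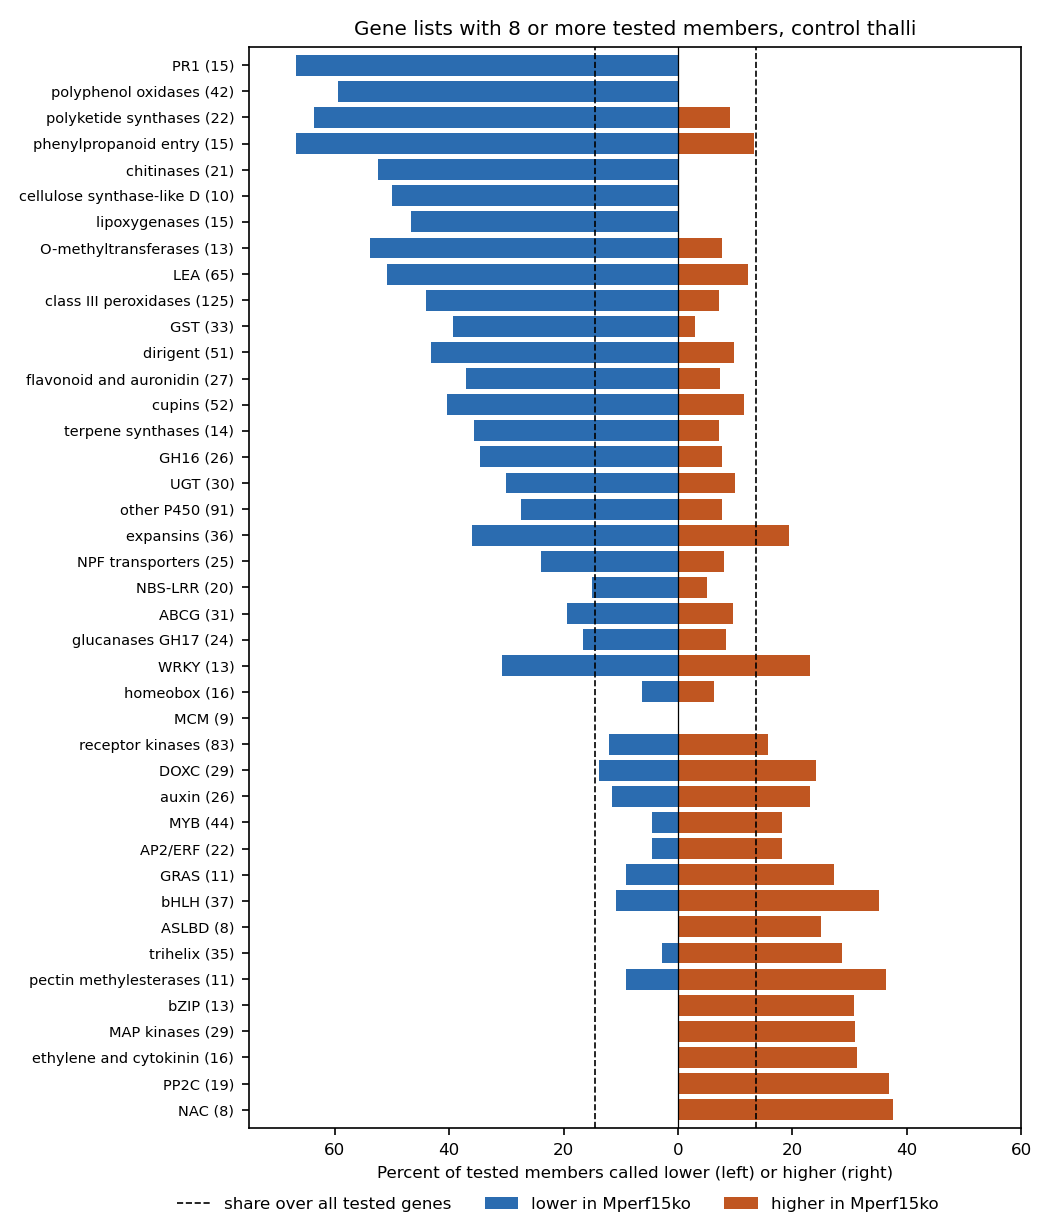
Percent of the tested members called lower (left, blue) or higher (right, orange) in Mperf15ko control thalli, for the lists with 8 or more tested members; the number tested is in brackets and dashed lines mark the shares over all tested genes, 14.6% lower and 13.6% higher. PR1, polyphenol oxidase, polyketide synthase and phenylpropanoid lists lie to the left, and NAC, PP2C, MAP kinase and bHLH lists to the right.

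Some lists, above or below, had no member called in a direction by edgeR. In that direction, under an unadjusted p of 0.05 edgeR gave 1 higher lipoxygenase and 1 higher chitinase, 1 lower PP2C, NAC, bZIP, MAP kinase, abscisic acid and ethylene or cytokinin gene each, and 2 lower MCM genes. It gave 0 higher polyphenol oxidases, PR1 genes and CSLD genes, 0 lower ASLBD and PTB genes, 0 higher MCM genes, and 0 CYP74 genes in either direction. DESeq2, at an adjusted p under 0.05, gave 0 in each of these cases except 1 lower MAP kinase.

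Among regulatory families, PP2C, NAC, bHLH, MAP kinase and trihelix lists had more higher than lower members, while WRKY and NBS-LRR lists did not. PP2C protein phosphatases, some of which restrain abscisic acid signalling, had 7 higher and none lower of 19 tested of 23 named, with 1 lower under upper quartile scaling. MpPP2C_F3 had 17.8, 26.4 and 23.7 CPM in Mperf15ko and 7.86, 10.6 and 10.8 CPM in Tak-1 (1.22, SE 0.15, edgeR adjusted p = 0.0001). MpPP2C_F1 differed by 0.87. NAC transcription factors had 3 higher and none lower of 8 tested of 10 named. MpNAC2 had 55.9, 80.3 and 76.5 CPM in Mperf15ko and 33.6, 35.1 and 26.4 CPM in Tak-1 (1.16, SE 0.15, adjusted p = 0.00013). MpNAC7 and MpNAC3 differed by 0.95 and 0.60, and in each of these 3 NAC genes no library of one genotype overlapped the other.

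Basic helix-loop-helix factors had 13 higher and 4 lower of 37 tested of 49 named, a higher share of 35.1%. MpBHLH31 had 28.0, 28.1 and 37.8 CPM in Mperf15ko and 16.7, 15.6 and 13.4 CPM in Tak-1 (1.04, SE 0.14, adjusted p = 0.00017), with shared reads in every library. Protein kinases of the MAP kinase cascades had 9 higher and none lower of 29 tested of 33 named. That count was 3 without Mperf15ko control replicate 3 and 5 without Tak-1 control replicate 3, and 1 was lower under 5 other settings, among them DESeq2 and the fit without Tak-1 control replicate 2. MpMAPKKK19 had 198, 216 and 251 CPM in Mperf15ko and 157, 174 and 150 CPM in Tak-1 (0.47, SE 0.09, adjusted p = 0.0027).

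Other factor families had higher shares of 6.25% (homeobox) to 30.8% (bZIP), against 13.6% higher and 14.6% lower over all tested genes. MYB factors had 8 higher (18.2%) and 2 lower (4.55%) of 44 tested of 57 named. AP2/ERF factors had 4 higher (18.2%) and 1 lower (4.55%) of 22 tested of 30 named, and homeobox factors 1 and 1 of 16 tested of 20 named. The higher shares of MYB and AP2/ERF factors were thus near that over all tested genes. The MYB higher count was 5 without Mperf15ko control replicate 2 or 3 and 4 without Tak-1 control replicate 3, and the AP2/ERF count 2 without Mperf15ko control replicate 3 or Tak-1 control replicate 1. The lower counts of MYB, AP2/ERF and homeobox factors were reduced by 1 without Mperf15ko control replicate 2 or 3 or Tak-1 control replicate 3, as were those of MYB without Mperf15ko control replicate 1 or Tak-1 control replicate 1 and of homeobox factors without Tak-1 control replicate 1. Trihelix factors had 10 higher (28.6%) and 1 lower (2.86%) of 35 tested of 39 named. Their higher count was 6 without Mperf15ko control replicate 2 and 5 without Mperf15ko control replicate 3 or Tak-1 control replicate 1, and their lower call was kept only without Tak-1 control replicate 2 among the control libraries. The bZIP factors had 4 higher and none lower of 13 tested, with 2 higher without Mperf15ko control replicate 3 or Tak-1 control replicate 2 or 3, and 1 lower under upper quartile scaling. GRAS factors had 3 higher and 1 lower of 11 tested, but 1 higher and 2 lower under upper quartile scaling. None was higher without Mperf15ko control replicate 3, and 1 was higher without any 1 Tak-1 control library. Their lower call was lost without Mperf15ko control replicate 1 or 3 or Tak-1 control replicate 2. ASLBD factors had 2 higher and none lower of 8 tested of 21 named.

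WRKY factors, regulators of defence in flowering plants, were split between 3 higher (23.1%) and 4 lower (30.8%) of 13 tested of 14 named. The shares over all tested genes were 13.6% and 14.6%. There were 6 higher without Mperf15ko control replicate 1 and 2 lower without replicate 2. MpWRKY9 had 12.5, 18.0 and 17.8 CPM in Mperf15ko and 10.1, 8.91 and 8.39 CPM in Tak-1 (0.81, SE 0.14, adjusted p = 0.00094). MpWRKY3 had 0.0834, 0.334 and 0 CPM in Mperf15ko and 1.12, 1.08 and 2.05 CPM in Tak-1 (-3.31, SE 0.63, adjusted p = 0.0019). Receptor-like kinases were close to the background, with 13 higher and 10 lower of 83 tested of 96 named. These counts were 6 and 6 without Mperf15ko control replicate 3, with 7 higher without Tak-1 control replicate 3 and 5 lower without Mperf15ko control replicate 2. NBS-LRR genes, intracellular immune receptors in flowering plants, had 1 higher and 3 lower of 20 tested of 21 named. The lower count was 1 without Mperf15ko control replicate 1 or 3 or Tak-1 control replicate 2, and 2 were higher without Tak-1 control replicate 1.

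Among hormone genes, the largest rise was in cytokinin breakdown. MpCKX1 encodes cytokinin oxidase, which degrades cytokinin. It had 14.9, 18.4 and 16.2 CPM in Mperf15ko and 3.74, 4.50 and 3.55 CPM in Tak-1 (2.07, SE 0.20, edgeR adjusted p = 1.5e-05), 4.20-fold higher, and all 3 Mperf15ko libraries lay above all 3 Tak-1 libraries. The type-A response regulator MpRRA, part of the cytokinin response, had 260, 347 and 302 CPM in Mperf15ko and 189, 196 and 184 CPM in Tak-1 (0.68, SE 0.14, adjusted p = 0.0041). The ethylene receptor MpETR1 differed by 0.40 (adjusted p = 0.0092) and MpEIN2, which passes on the ethylene signal, by 0.38 (adjusted p = 0.011). MpEIN2 did not pass without Mperf15ko control replicate 3. Of 16 tested ethylene and cytokinin genes 5 were higher (31.2%, against 13.6% over all tested genes) and none lower. Without Mperf15ko control replicate 3 the higher count was 3, and without Tak-1 control replicate 1 a single gene was lower.

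Auxin genes had 6 higher (23.1%) and 3 lower (11.5%) of 26 tested of 32 named, against 13.6% and 14.6% over all tested genes. The higher count was 3 without Tak-1 control replicate 3 and the lower count 1 without Mperf15ko control replicate 2 or 3. MpPIN4, a member of the PIN family of auxin transporters, had the smallest adjusted p of all named genes together with Mp7g02900. It had 2.42, 2.15 and 1.93 CPM in Mperf15ko and 17.8, 19.0 and 14.2 CPM in Tak-1 (-2.97, SE 0.15, adjusted p = 1.8e-07), 7.81-fold lower, and in wounded thalli the log2 fold change was -3.89. MpSAUR3 had 64.7, 72.1 and 76.5 CPM in Mperf15ko and 45.6, 49.5 and 41.5 CPM in Tak-1 (0.64, SE 0.11, adjusted p = 0.00068). Of 7 tested abscisic acid genes of 10 named, 1 was higher, MpABI5A (0.41, adjusted p = 0.0086), and none lower, with 1 lower under upper quartile scaling or in the 6 control libraries alone.

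Phosphate transporters of the PTB type were higher together. Of 6 tested of 8 named, 4 were higher and none lower. MpPTB4 had 29.1, 42.2 and 38.9 CPM in Mperf15ko and 7.08, 12.3 and 6.43 CPM in Tak-1 (2.10, SE 0.22, adjusted p = 4e-05), 4.30-fold higher. MpPTB3 and MpPTB8 differed by 1.00 and 0.84, and MpPTB5 by 1.46, a call that was lost without Mperf15ko control replicate 3 or Tak-1 control replicate 1. The family summed to 71.2, 91.4 and 82.7 TPM in Mperf15ko, against 37.9, 49.5 and 34.6 TPM in Tak-1. NPF transporters, which carry nitrate, peptides or hormones in Arabidopsis, had 6 lower (24.0%) and 2 higher (8.0%) of 25 tested of 35 named. The shares over all tested genes were 14.6% and 13.6%. MpNPF14 had 65.4, 100 and 88.1 CPM in Mperf15ko and 36.2, 43.3 and 35.5 CPM in Tak-1 (1.14, SE 0.19, adjusted p = 0.0012).

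Genes of the cell cycle gave few calls. None of 9 tested MCM genes, which encode the replicative helicase, passed edgeR's test, and 1 was lower without Tak-1 control replicate 2. Of 4 tested cyclins of 5 named, the D-type cyclin MpCYCD_2 had 42.6, 33.8 and 54.6 CPM in Mperf15ko and 23.2, 25.3 and 20.5 CPM in Tak-1 (0.93, SE 0.18, adjusted p = 0.0022). The mitotic cyclin MpCYCB_1 was lower (-0.61, adjusted p = 0.014), a call that was lost without Mperf15ko control replicate 3 or Tak-1 control replicate 1 or 3. A second cyclin was lower without Tak-1 control replicate 2.

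The most abundant genes that differed carry no name in the files. Mp7g02900 reached 338, 487 and 285 CPM in Mperf15ko, against 5975, 6871 and 7528 CPM in Tak-1 (-4.20, SE 0.20, edgeR adjusted p = 1.8e-07), 18.4-fold lower. Per length this was a loss to 601 ± 175 TPM in Mperf15ko, against 10970 ± 658 TPM in Tak-1 (SD, n = 3 each). Mp7g01940 ran the opposite way, with 3298, 2927 and 6478 CPM in Mperf15ko and 274, 268 and 273 CPM in Tak-1 (3.96, SE 0.33, adjusted p = 3.2e-05), 15.6-fold higher. Both genes were separated in every library, and for Mp7g01940 the Mperf15ko libraries varied much more than the nearly equal Tak-1 libraries.

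Both differences recurred in the wounded libraries. Mp7g02900 had 197, 274 and 202 CPM in wounded Mperf15ko and 5635, 6119 and 5291 CPM in wounded Tak-1 (-4.66), and Mp7g01940 had 2607, 2605 and 4702 CPM in wounded Mperf15ko and 308, 335 and 334 CPM in wounded Tak-1 (3.34). Among the other most abundant called genes, Mp2g12010 had 4137, 5424 and 4895 CPM in Mperf15ko and 2241, 2465 and 2405 CPM in Tak-1 (1.02, SE 0.13, adjusted p = 0.00011). The next 2 IDs, Mp2g12020 and Mp2g12030, were higher by 0.80 and 0.72, and Mp2g07490 by 0.89. Mp4g10850, the most abundant of all called genes at 30800 ± 1229 TPM in Mperf15ko and 24450 ± 1251 TPM in Tak-1, was higher by 0.33, a call lost without Mperf15ko control replicate 2 or 3 or Tak-1 control replicate 1.

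Besides Mp7g02900, the most abundant genes called lower differed by small amounts. Mp4g06030 had 2641, 2348 and 2561 CPM in Mperf15ko and 3329, 3997 and 4023 CPM in Tak-1 (-0.59, SE 0.10, edgeR adjusted p = 0.00063). Mp7g06710, Mp7g18150 and Mp4g15080 differed by -0.40, -0.33 and -0.30 on the log2 scale, and in all 4 genes the genotypes did not overlap. The calls of these last 3 genes were lost without Mperf15ko control replicate 2 or Tak-1 control replicate 2, and that of Mp4g15080 also without Mperf15ko control replicate 1 or 3 or Tak-1 control replicate 3.

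Genes with large differences lay next to each other in places. A run was defined, after values had been seen, as 4 or more consecutive tested gene IDs that were called in the same direction with an absolute log2 fold change of 1 or more. There were 20 such runs with 100 genes, and 19 of them, with 91 genes, were lower in Mperf15ko. On chromosome 4, the genes from Mp4g14150 to Mp4g14190, which include MpPKS/CHS12, MpPAL-like2, MpPKS/CHS13 and MpPKS/CHS14, summed to 107, 69.7 and 74.2 CPM in Mperf15ko and 177, 207 and 201 CPM in Tak-1. On chromosome 5, 8 genes from Mp5g01640 to Mp5g01710, among them 7 peroxidases, summed to 49.5, 39.3 and 50.9 CPM in Mperf15ko and 90.5, 193 and 122 CPM in Tak-1. The 7 genes from Mp8g08940 to Mp8g09020 on chromosome 8 summed to 90.5, 61.7 and 58.1 CPM in Mperf15ko and 397, 455 and 607 CPM in Tak-1. Further runs on chromosomes 2 and 6 held LEA genes at or near 0 in Mperf15ko and low in intact Tak-1. The run from Mp2g26410 to Mp2g26460 summed to 6.02, 1.03 and 5.76 CPM in intact Tak-1. That from Mp6g02960 to Mp6g03000 summed to 7.61, 1.6 and 3.47 CPM in intact Tak-1. In wounded thalli the chromosome 6 run reached 7.44, 22.3 and 12.6 CPM in Mperf15ko and 58.1, 55.5 and 71.0 CPM in Tak-1.

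The single run that was higher spanned 9 genes, Mp5g04550 to Mp5g04630, with log2 fold changes of 1.75 to 2.90. Its sum was 880, 1018 and 891 CPM in Mperf15ko and 167, 120 and 195 CPM in Tak-1. All 9 shared reads with other transcripts, inside or outside the run, and the files give none of them a name. Reads were shared in the runs of chromosomes 4 and 5 as well.

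The same genotype contrast was then read in the 6 wounded libraries, which share no thallus with the control libraries, although 1 estimate of the spread was fitted to all 12. There, 3352 genes (23.5%) passed edgeR's test, 1667 lower (11.7%) and 1685 higher (11.8%). Without Tak-1 wounded replicate 2 the count was 1832, without Tak-1 wounded replicate 3 it was 2210, and without Mperf15ko wounded replicate 2 it was 2096. Of the 2079 genes lower in intact thalli, 1138 (54.7%) were also lower in wounded thalli and 21 were higher. Of the 1931 genes higher in intact thalli, 863 (44.7%) were also higher and 25 were lower. Among differences of 2-fold or more, 527 of the 715 lower genes (73.7%) and 113 of the 216 higher genes (52.3%) passed again in the same direction.

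By family, 43 of the 55 lower peroxidases, 26 of the 33 lower LEA genes, 17 of the 25 lower polyphenol oxidases and 12 of the 14 lower polyketide synthases were lower in wounded thalli too. So were 6 of the 7 lower lipoxygenases, MpLOX10 being the exception (-0.42, adjusted p = 0.059), and 8 of the 10 lower PR1 genes. All 4 higher PTB genes were higher again. Of the higher PP2C genes and MAP kinases, 2 of 7 and 1 of 9 passed again. MpPAL3 differed by -3.52 and MpPR6c by -4.32 in wounded thalli, against -3.96 and -4.72 in intact thalli.

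The genotype difference itself differed between wounded and intact thalli for 152 genes (1.07%). That count was 61 without Tak-1 wounded replicate 2, 65 without Tak-1 wounded replicate 3, 73 without Mperf15ko control replicate 3, 101 without Tak-1 control replicate 2 and 324 without Mperf15ko control replicate 1. It held 16 of the 715 genes lower by 2-fold or more in intact thalli and 20 of the 216 higher ones (9.26%). Both sets were picked by values in intact thalli, which also enter the difference, so their shares are not compared with the 1.07%. MpCKX1, called higher in both states, had 4.56, 5.71 and 8.08 CPM in wounded Mperf15ko and 3.22, 4.05 and 4.10 CPM in wounded Tak-1. Its log2 fold change was 0.68 in wounded thalli, against 2.07 in intact thalli.

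**Figure D5:**
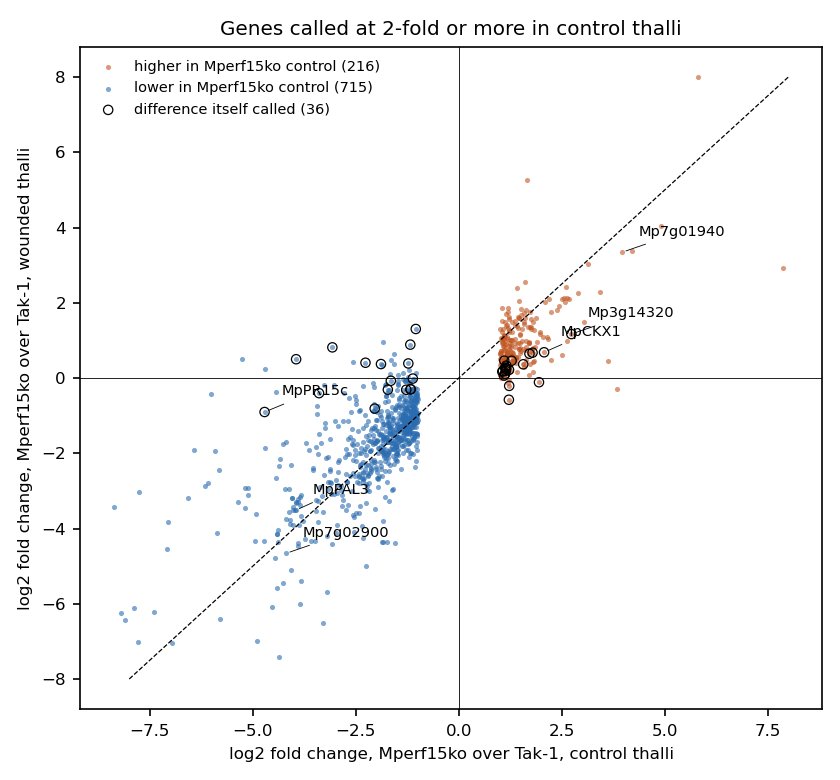
Log2 fold change (Mperf15ko over Tak-1) in control thalli and in wounded thalli for the 216 genes called higher and the 715 called lower by 2-fold or more in control thalli; circles mark genes whose difference between the states was itself called, and the dashed line marks equal values. Most points share the sign of both values, with Mp7g02900 at -4.20 and -4.66 and MpCKX1 at 2.07 and 0.68.

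Markers of cell types gave few calls in short lists, against 28.1% called over all tested genes. None of 5 oil body cell genes, 1 rhizoid gene, 4 genes of air chambers and pores, 3 apical notch genes and 2 germ line genes passed edgeR's test, and a single oil body gene was lower under DESeq2, upper quartile scaling or without Tak-1 control replicate 3. Oil body markers summed to 13.5, 17.2 and 10.2 TPM in Mperf15ko and 21.7, 15.2 and 14.9 TPM in Tak-1, which overlapped. Under an unadjusted p of 0.05 edgeR gave 1 lower oil body gene, 1 higher gene of air chambers and pores, and 0 rhizoid, apical notch or germ line genes. Air chamber markers summed to 86.8, 87.1 and 90.2 TPM in Mperf15ko and 94.1, 89.0 and 76.6 TPM in Tak-1. The gemma cup gene MpGCAM1 had 0.792, 0.859 and 0.482 CPM in Mperf15ko and 2.06, 0.844 and 1.09 CPM in Tak-1 (-0.93, adjusted p = 0.047), a call lost without any 1 Mperf15ko control library or Tak-1 control replicate 1. Of 61 tested genes of the male V chromosome, 10 (16.4%) were called, 7 higher and 3 lower, a smaller share than the 28.1% over all tested genes. Of the 61, 40 reached 1 CPM in all 6 control libraries. The part of these cell types in the family differences was not tested.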

How the data were processed

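Per the file headers, the deposited files are Salmon output listing every transcript with length, TPM and estimated count. Per the submitters' processing notes, CASAVA and Salmon 0.7.2 were used. Not given in the sources used here are the roles of both, the annotation and the genome build. The authors' deposited TPM values are per length and scaled to a constant total, and were summed over the transcripts of a gene. The authors' deposited expected counts (24751 transcripts) were summed to 19421 genes and rounded. No sequence or coordinate is shown, since no genome was used here.

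All 12 libraries were fitted with a mean per group in edgeR 4.0.16 (R 4.3.3; TMM, filterByExpr, robust glmQLFit, glmQLFTest), leaving 14246 tested genes. A gene was called where its p, adjusted by Benjamini and Hochberg's method over all tested genes, was under 0.05; every adjusted p is from edgeR unless DESeq2 (1.42.0) is named. The common biological coefficient of variation was 0.126. CPM values carry the TMM factors. The pipeline was tested on simulated data with a small set of changed genes, as many up as down and none of low abundance. These data differ from that setting, so no call rests on it. A count that was fractional in any library marks shared reads. Names came from a table of the assembly MpTak2_v7.1, which is of a female accession (17386 IDs matched, 3091 with a symbol); 53 lists were filled from symbols and are no census of a family.

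The comparison and the gene lists were chosen with earlier results of these data known. Named genes were MpERF15, all tested oxylipin genes, the 12 largest called differences in each direction without overlap and with a mean of 10 or more CPM in the higher genotype, per list the 4 largest called differences and the most abundant called member, and the 5 most abundant called genes in each direction. A further class, genes under 0.5 TPM in every library of one genotype and at 5 or more in every library of the other, held 0 genes. Alternatives were other scalings, filters, features, libraries in the fit, DESeq2, a replicate block and leaving out each library. The p-values measure the spread between libraries, and bounds against 0 reads cover counting error only. Replicates of a group were compared and none was found to be the same library (chi-square per gene of 15.6 to 34.2).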

Additional observations from a re-analysis of the deposited data

Results flagged for a closer look

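For 9 named genes the genotype difference differed between wounded and intact thalli, by edgeR's test of that difference over all tested genes (1.07% called). Values are the difference of log2 fold changes (Mperf15ko over Tak-1), wounded minus intact. Most named genes were chosen by their call or size in intact thalli, and the same values enter this difference. All 9 opposed the sign in intact thalli, a direction that this choice favours, so it is not read as a result about wounding.

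MpPR15c, a germin-like gene, had a log2 fold change of -4.71 in intact thalli and -0.90 in wounded thalli, a difference of 3.81 (SE 0.56, edgeR adjusted p = 0.0089). It had 0.292, 0.0954 and 0.145 CPM in intact Mperf15ko and 3.06, 4.46 and 7.43 CPM in intact Tak-1, and 17.5, 26.1 and 18.9 CPM in wounded Mperf15ko and 39.1, 40.1 and 37.9 CPM in wounded Tak-1. Its reads were shared in 5 of the 6 control libraries. MpNPF5 was lower in intact thalli (-0.86) and did not pass in wounded thalli (0.26), a difference of 1.11 (SE 0.22, adjusted p = 0.029).

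Genes that were higher in intact Mperf15ko and less so, or lower, after wounding made up the other 7. Mp3g14320 had 50.0, 74.7 and 71.9 CPM in intact Mperf15ko and 7.67, 10.4 and 11.7 CPM in intact Tak-1, and 113, 132 and 98.1 CPM in wounded Mperf15ko and 49.5, 50.3 and 52.5 CPM in wounded Tak-1, a difference of -1.56 (SE 0.24, adjusted p = 0.011). MpNAC7 was higher in intact thalli (0.95) and lower in wounded thalli (-0.51), a difference of -1.46 (SE 0.21, adjusted p = 0.0069). It had 43.4, 55.0 and 44.4 CPM in wounded Mperf15ko and 60.9, 67.8 and 74.9 CPM in wounded Tak-1. MpHD6 had 124, 143 and 139 CPM in wounded Mperf15ko and 136, 141 and 139 CPM in wounded Tak-1, a difference of -0.746 (SE 0.12, adjusted p = 0.0098). The difference was -1.39 for MpCKX1 (adjusted p = 0.032) and -1.0 for MpPP2C_F3 (adjusted p = 0.029), whose log2 fold changes in intact thalli were 2.07 and 1.22. It was -1.03 for MpERF1 (adjusted p = 0.042) and -0.593 for MpGRAS1 (adjusted p = 0.039). These last 2 genes were higher in intact thalli (0.57 and 0.28) and lower in wounded thalli (-0.46 and -0.31).

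The calls of MpPR15c, Mp3g14320, MpNAC7 and MpHD6 held when any 1 of the 12 libraries was left out, with adjusted p of up to 0.036. Those of the other 5 were lost without some library, with adjusted p of up to 0.09 for MpCKX1 and MpGRAS1, 0.12 for MpERF1, 0.068 for MpPP2C_F3 and 0.098 for MpNPF5. All 5 were lost without Mperf15ko control replicate 3 or Tak-1 wounded replicate 3, and all but MpNPF5 without Tak-1 wounded replicate 2. All but MpPP2C_F3 were lost without Mperf15ko control replicate 2 or Tak-1 control replicate 3, and all but MpERF1 without Tak-1 control replicate 1. MpERF1 and MpNPF5 were also lost without Tak-1 control replicate 2 or Mperf15ko wounded replicate 1 or 3, MpERF1 without Mperf15ko wounded replicate 2, MpNPF5 without Tak-1 wounded replicate 1, and MpGRAS1 without Mperf15ko wounded replicate 3. With transcripts as features 6 of the 9 calls were lost, with adjusted p of 0.073 for Mp3g14320, 0.078 for MpGRAS1, 0.1 for MpCKX1, 0.12 for MpERF1, 0.15 for MpPP2C_F3 and 0.92 for MpNPF5.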

How the results depend on the processing

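The 4010 genes called in intact thalli became 3502 to 4306 under other scalings, filters, DESeq2 and the 6 control libraries alone, 2888 with transcripts as features, and 2565 to 4110 when 1 library was left out. Of the called genes 48.2% were higher, against 39.8% under upper quartile scaling and 55.0% with transcripts. The 3352 calls in wounded thalli became 2168 with transcripts and 1832 to 3516 without 1 library. The 152 calls of the difference became 468 with DESeq2, 39 with transcripts and 61 to 324 without 1 library. MpERF15 stayed between 0.165 and 0.69 without 1 library and passed in none of these fits. Leaving out wounded libraries was added after seeing the data.

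Of 237 named genes, 56 lost their call without Mperf15ko control replicate 3, 53 with transcripts, 39 without Tak-1 control replicate 3, 38 without Mperf15ko control replicate 2 and 3 with DESeq2. MpBZIP8, called higher, gave -0.325 with transcripts. Transcripts also lost every lower call of the AP2/ERF, GRAS, homeobox, trihelix, CE8, cyclin and NBS-LRR lists and the higher NBS-LRR call. Uncalled genes near 0 changed sign: MpJAZ gave -0.00244 under upper quartile scaling, and MpLOX12 gave 0.00688 without a filter, 0.0137 with the replicate block and 0.00511 with transcripts. Without 1 library MpLOX12 ranged over -0.172 to 0.237, MpLOX13 -0.329 to 0.288, MpLOX2 -0.122 to 0.0452, MpLOX3 -0.296 to 0.151, MpLOX6 -0.492 to 0.925 and MpLOX9 -0.144 to 0.212. The cause was not tested.

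Deviations of same-numbered Mperf15ko and Tak-1 control libraries correlated at 0.117, -0.141 and -0.028. Control and wounded libraries of the same number correlated at 0.089, 0.225 and 0.087 in Mperf15ko and -0.313, 0.04 and -0.247 in Tak-1. No pair of groups had all 3 correlations over 0.1, so the numbers were not taken as pairs. Control and wounded Mperf15ko were the only groups with 3 positive correlations. A link between their same-numbered libraries was not tested, which limits the wounded set as a separate set. With the replicate block, 3619 genes were called in intact thalli, 2926 in wounded thalli and 130 for the difference. Under that block both higher phenylpropanoid entry calls and the MpGCAM1 call were lost, as were the calls of the difference for MpERF1 (adjusted p = 0.071) and MpGRAS1 (adjusted p = 0.051). With 3 libraries a genotype and 20.7 to 30.4 M reads each, genes of a few CPM have wide errors, and reads shared between close copies limit single members of large families.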

Other observations

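In Mp8g02700, Mp8g02710 and Mp8g02750 the 3 intact Mperf15ko libraries differed widely from each other. Mp8g02750 had 1.92, 34.6 and 19.4 CPM in intact Mperf15ko replicates 1 to 3 and 1.09, 0.422 and 0.209 CPM in intact Tak-1. Mp8g02710 had 1.79, 21.7 and 10.5 CPM in intact Mperf15ko and 0.593, 0.422 and 0.793 CPM in intact Tak-1. Mp8g02700 had 4.04, 25.6 and 13.1 CPM in intact Mperf15ko and 3.49, 1.69 and 2.26 CPM in intact Tak-1. Replicate 1 of Mperf15ko was low and replicates 2 and 3 were high in wounded thalli as well, with 1.02, 15.7 and 8.14 CPM for Mp8g02750 in wounded Mperf15ko and 0.760, 0.215 and 0.569 CPM in wounded Tak-1. Reads of all 3 genes were shared with other transcripts. Their calls in intact thalli (edgeR adjusted p of 0.032, 0.015 and 0.02) were lost without Tak-1 control replicate 1 or 2. Those of Mp8g02700 and Mp8g02750 were also lost without Mperf15ko control replicate 2 or Tak-1 control replicate 3, and that of Mp8g02700 without Mperf15ko control replicate 3.

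MpERF21, another AP2/ERF gene, had 0.459, 6.20 and 2.41 CPM in intact Mperf15ko and 0.187, 0.0938 and 0.418 CPM in intact Tak-1 (edgeR adjusted p = 0.022), a call lost without Tak-1 control replicate 1 or 2. The V chromosome gene MpVg01065, singled out after its values were seen, had 0.917, 2.91 and 0.193 CPM in intact Mperf15ko and no read in the 3 intact Tak-1 libraries.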
